A study of Mus musculus with 15 samples.

Results

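The comparison described here set the balanced diet against both extremes of the dietary n-3 to n-6 ratio in mouse hemibrain. Male C57BL/6j mice entered the study at 3 weeks of age and received 1 of 3 diets for 24 weeks. The enriched diet (ERD) supplied n-3 and n-6 polyunsaturated fatty acids (PUFA) at 7 parts to 1, the balanced diet (BLD) at 1 to 1 and the standard diet (STD) at 1 to 6. The measure is the mean of the 5 BLD arrays minus the average of the ERD mean and the STD mean (5 arrays each), so all 15 arrays of the series entered it. It asks which transcripts stand higher or lower at the middle of the ratio than at its ends, and it was taken over every gene with no selection. STD is the diet at the n-6 end and serves as 1 of the extremes, so no unfed or untreated group enters. Each array carried the Cy5-labelled RNA of a hemibrain and, labelled with Cy3, a common pool of RNA from 11 mouse cell lines. Values are log2 ratios of the hemibrain signal to that of the pool, and a difference is a difference of such log2 ratios. The labels do not say whether animals of a group shared a litter or cage, so p-values measure the spread between these arrays.

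The n-3 and n-6 families of PUFA cannot be made from each other in mammals, and both pass through the same desaturases and elongases, for which they compete. Brain membranes are rich in the n-3 docosahexaenoic acid and the n-6 arachidonic acid. Both are held in phospholipids, released by phospholipases and turned into signalling lipids such as eicosanoids and endocannabinoids. PUFA also act on transcription through nuclear receptors and the sterol-responsive factors that control lipid synthesis. A monotonic response to the ratio would place BLD between ERD and STD, whereas a peak or a trough at the balanced ratio would place it beyond both.

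The hemibrain signal was well above background for 17720 to 31991 spots per array. The arrays lay on 8 slides and were scanned on 2 days. Of the later day's arrays 3 were BLD, 1 was ERD and 0 were STD. Scan day was therefore unevenly spread over the diets, and a single slide held all of them. That slide held 1 array per diet (ERD 5, BLD 5 and STD 4), so values from it compare single arrays and have no measure of spread. The arrays least like the others were ERD 1, BLD 3 and ERD 4. In the Cy3 channel, where every array held the same RNA, 0% of 22557 genes were called for the same difference. There, 4056 genes (18%) had an unadjusted p under 0.05, 791 of them higher and 3265 lower in BLD. In whole hemibrain RNA, fewer cells of a type and less RNA per cell cannot be told apart.

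No gene passed the test for BLD against the mean of both extremes. Of 22557 genes tested with limma, 0% had a Benjamini-Hochberg adjusted p under 0.05, and the lowest adjusted p was 0.1. The stricter question of BLD beyond ERD and STD separately, judged by the larger of both p-values, also called 0%, with a lowest adjusted p of 0.524. Without adjustment, 1461 genes (6.48%) were higher in BLD at p under 0.05 and 471 (2.09%) were lower. Of these, 286 genes (1.27%) lay above both extremes and 68 (0.301%) below both with each of the 2 p-values under 0.05. By group means alone BLD lay above both extremes for 41.4% of genes, below both for 22.9% and between them for 35.7%. If the 3 diets did not differ, each of these positions would be equally likely for a gene. The shares alone therefore do not show a peak or a trough. The median difference over all genes was 0.051, and 61.5% of genes had a positive one.

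Genes whose 5 BLD arrays did not overlap the other 10 arrays were few. All BLD arrays lay above all others for 13 genes (0.0576%) and below all others for 4 (0.0177%). Those with a symbol were Zic2, Atp11b, Srpr, Coa5, Wfdc6a, Zdhhc6, Zfp692, Col4a1 and Cmc4 above, and Zfp703 and Gimap8 below. The same fit, set to 1 extreme at a time, called 0 genes for BLD against ERD and 2 for BLD against STD, among them Raly. These comparisons share the BLD arrays with the one described here, so their values are given beside it and are not separate evidence.

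**Figure D1:**
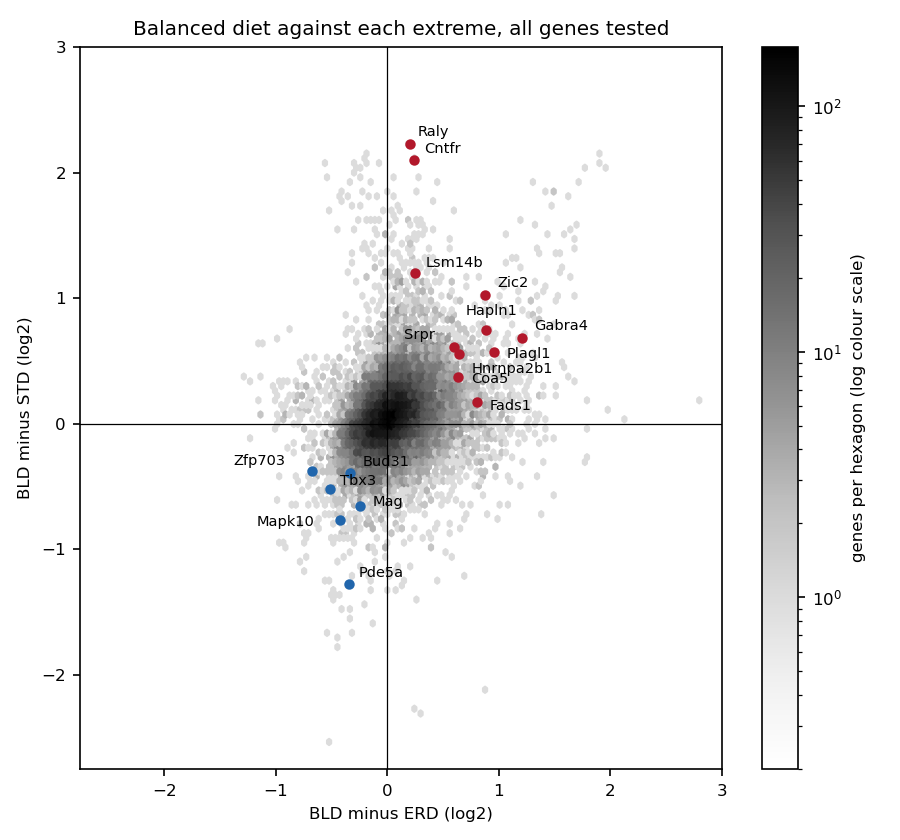
Difference of BLD from ERD (horizontal axis, log2) against its difference from STD (vertical axis, log2) for the 22557 genes tested, with darker hexagons holding more genes and named genes marked in red (positive contrast) or blue (negative). Genes in the upper right and lower left lie beyond both extremes, as Zic2 (0.87 and 1.02) and Tbx3 (-0.52 and -0.52) do, while Raly and Cntfr lie near 0 on the horizontal axis; both axes share the BLD arrays.

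How many genes lay on each side depended on the background correction. With the normexp offset of 50 used here, 75.6% of the genes with an unadjusted p under 0.05 were higher in BLD. The share was 44.1% with an offset of 1, 61.5% without background correction and 52.4% with the scanner software's own log ratio. Cy5 alone gave 56.6%. With no filter on dim probes the share was 55.3%, and the median of all genes was 0.0020. Median centring of each array in place of loess gave 98.1% and moved the median of all genes to 0.198. Which side held more genes thus changed with the setting.

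**Figure D2:**
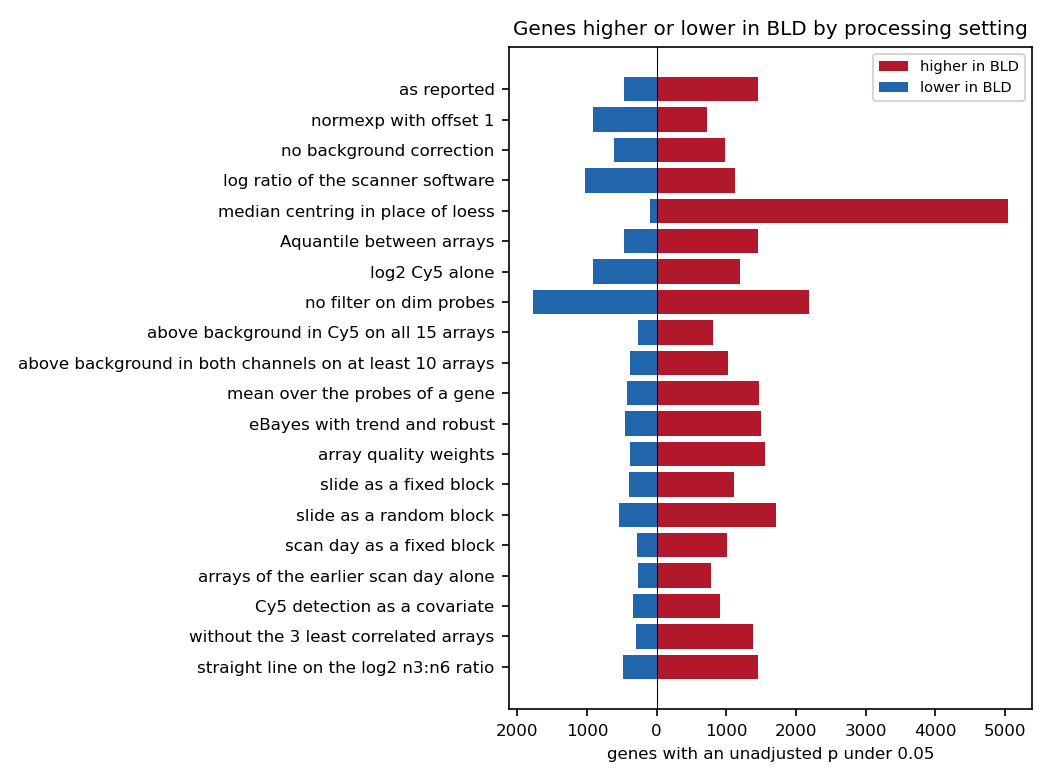
Number of genes with an unadjusted p under 0.05 that were higher (red, to the right) or lower (blue, to the left) in BLD than in the mean of ERD and STD, for each way of processing the arrays. As reported, 1461 were higher and 471 lower; an offset of 1 gave 720 and 914, and median centring 5050 and 97.

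Among genes with a symbol whose Cy5 signal was well above background on 3 or more arrays of every diet, the 12 of lowest p in each direction are described first. None passed adjustment, and the values below are ranked descriptions. Zic2, a zinc finger transcription factor of cerebellar and dorsal neural development, is described first because its BLD arrays stood apart from both ends. Its log2 ratio was 1.43, 0.81, 0.45, 1.71 and 1.67 on the BLD arrays, against 0.35, 0.33, 0.42, 0.32 and 0.29 on ERD and 0.24, 0.16, -0.0061, 0.27 and 0.28 on STD. Every BLD array lay above every other array, but BLD 2 and BLD 3 lay far below the other BLD arrays and near the ERD values. The difference was 0.95 ± 0.17 (SE), with an adjusted p of 0.361. The SE pools the diets, whose SDs were 0.049 in ERD, 0.56 in BLD and 0.12 in STD. On the earlier scan day alone, with 2 BLD arrays, the difference was 1.28 with an adjusted p of 0.00691. Zic2 was the only gene called there, and that day leaves out the low arrays BLD 2 and BLD 3. Without BLD 3 the difference was 1.14 with an adjusted p of 0.0142. The hemibrain signal of Zic2 was well above background on 4 ERD, 5 BLD and 3 STD arrays. The reference pool was well above background for Zic2 on 1 ERD, 1 BLD and 0 STD arrays, so the size of the ratio difference depends on a reference signal near background. In Cy5 alone the difference was 0.56. Zic1, of the same family, had 0.78 ± 0.27 from its brightest probe and 0.14 ± 0.12 from another, and its direction turned to -0.72 with the scanner software's log ratio.

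Srpr encodes the alpha subunit of the receptor that docks ribosomes with a signal sequence to the endoplasmic reticulum. Its BLD values were -0.83, -0.69, -0.75, -0.75 and -0.56, those of ERD -1.60, -1.56, -1.19, -1.04 and -1.16 and those of STD -1.51, -1.08, -1.64, -1.15 and -1.24. BLD lay above all other arrays, and both extremes were alike. The distance was 0.60 from ERD and 0.61 from STD, the contrast 0.60 ± 0.12 (1.52-fold, adjusted p = 0.543). Benjamini-Hochberg adjustment gave the same adjusted p of 0.543 to most genes named here. Hapln1, the link protein that fastens proteoglycans to hyaluronan in the matrix around neurons, measured 1.81, 1.28, 1.83, 1.96 and 1.68 on BLD. On ERD it measured 0.49, 1.26, 0.43, 0.72 and 1.22, and on STD 0.87, 1.46, 0.77, 1.00 and 0.73. Only BLD 2 fell within the range of the other diets, and the contrast was 0.82 ± 0.17, or 0.47 in Cy5 alone. The reference pool was well above background for Hapln1 on 0 of 15 arrays, so the size of this log2 ratio difference depends on a denominator at background. The same held for Nlgn1, Grik1, Gabra4, Kcnd2, Cacna1d, Htr2c, P2ry12, Hbb-b1 and Elovl2, whose differences are given with those of Cy5 alone. The reference passed on 1 ERD, 1 BLD and 0 STD arrays for Maob and Zic1, and on 0, 2 and 0 for Alas2. For Rgs5, Dlx5, Egr4, Cntfr and Syn3 it passed on 1 to 3 arrays of each diet. In Cy5 alone, Maob had 0.48, Zic1 0.70, Alas2 0.68 and Rgs5 0.52. Dlx5 had 0.30 there, Egr4 0.56, Cntfr 1.06 and Syn3 0.20. Among genes with a symbol under the same detection rule, Zic2, Srpr and Hapln1 were the 3 of lowest p for BLD above both extremes.

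Coa5, an assembly factor of cytochrome c oxidase, gave values that differed between its probes. Its brightest probe measured -0.10, -0.34, -0.40, -0.30 and -0.37 on BLD, -1.04, -1.11, -0.78, -0.93 and -0.84 on ERD and -0.87, -0.52, -0.72, -0.83 and -0.44 on STD. These BLD values lay above all others, with a contrast of 0.51 ± 0.10. The other measured probe of Coa5 had -0.21 ± 0.12, which has the opposite sign. Hnrnpa2b1, an RNA-binding protein of nuclear pre-mRNA and of mRNA transport, had a contrast of 0.60 ± 0.13 (1.51-fold). Its BLD values were -0.61, -1.25, -1.14, -1.04 and -1.12, against -1.83 to -1.49 on ERD and -1.98 to -1.22 on STD. BLD 2 reached into the STD range through STD 2 alone.

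The remaining genes of the 12 with BLD above both means follow. Atp11b, a flippase that moves phospholipids between membrane leaflets, measured 0.40, 0.47, 0.22, 0.54 and 0.48 on BLD, -0.66, -0.24, 0.18, 0.15 and -0.16 on ERD and -0.70, 0.16, -0.98, -0.52 and -0.94 on STD. The groups did not overlap, by a margin of a few hundredths between BLD 3 and ERD 3. Its contrast was 0.79 ± 0.18 (1.73-fold). Phlpp1, a phosphatase that acts on Akt, had 0.53 ± 0.12, with BLD from 0.87 to 1.44, ERD from 0.33 to 0.91 and STD from 0.42 to 0.81. For Pbx3, a homeodomain transcription factor, the contrast was 0.51 ± 0.12, and for the histone demethylase Kdm4a 0.58 ± 0.13. For Kdm4a, BLD 5 stood at 0.59 and the other BLD arrays ranged from -0.23 to 0.037. Ly6a, a surface protein of brain endothelium, had 0.70 ± 0.15, and BLD overlapped ERD but not STD.

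**Figure D3:**
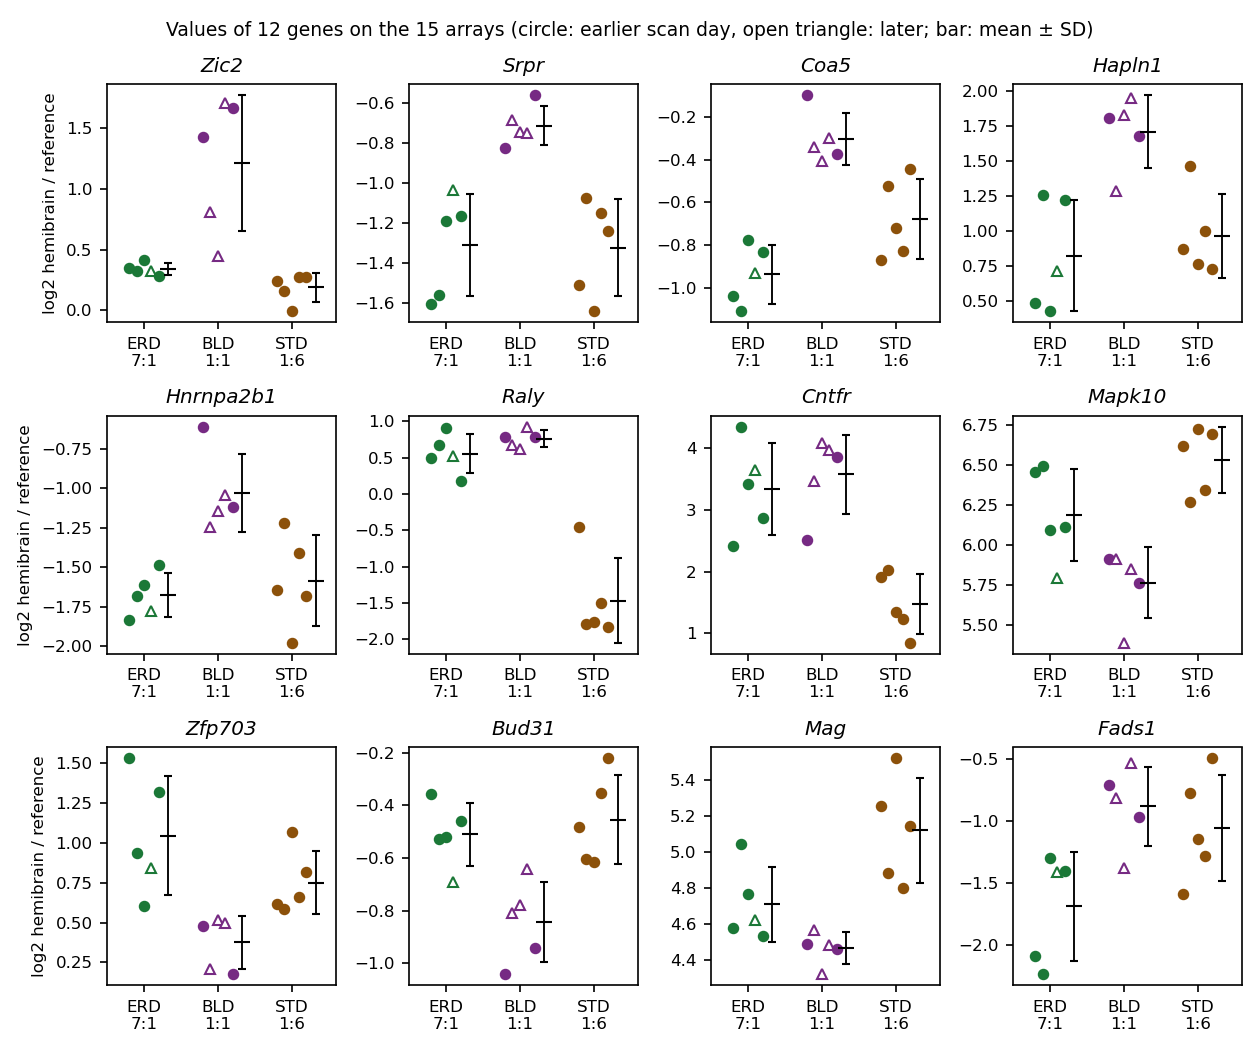
Log2 ratio of hemibrain to reference (vertical axis of each panel) of 12 named genes on every array, by diet in the order of the n-3 to n-6 ratio; filled circles were scanned on the earlier day, open triangles on the later day, and the bar is the mean ± SD of 5 arrays. Zic2, Srpr and Coa5 have all BLD arrays above the rest and Zfp703 all below, whereas for Raly and Cntfr BLD lies among the ERD arrays and apart from STD.

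A large contrast could also arise where BLD resembled 1 extreme. Raly, an hnRNP protein that binds RNA, had the lowest p of any gene with a symbol, at 1.13e-05 before and 0.127 after adjustment. Its values were 0.79, 0.68, 0.62, 0.93 and 0.79 on BLD and 0.49, 0.67, 0.91, 0.53 and 0.18 on ERD, but -0.46, -1.79, -1.76, -1.49 and -1.84 on STD. BLD and ERD overlapped while all STD arrays lay below, so the contrast of 1.22 ± 0.19 combined 0.20 against ERD with 2.23 against STD. STD 1 stood above the other STD arrays, and without it Raly had an adjusted p of 0.000237. Cntfr, a receptor subunit that binds ciliary neurotrophic factor, likewise had 0.24 against ERD and 2.10 against STD. Lsm14b, an Sm-like RNA-binding protein, had 0.25 and 1.20. Its contrast was 0.73 ± 0.16 from its brightest probe and 0.19 ± 0.12 from another. For BLD above both extremes, the larger unadjusted p-values of Raly, Cntfr and Lsm14b were 0.373, 0.518 and 0.186.

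In the opposite direction, Mapk10 had the lowest p. It encodes the neuronal stress kinase JNK3. Its brightest probe measured 5.91, 5.91, 5.39, 5.85 and 5.76 on BLD, 6.45, 6.49, 6.09, 5.79 and 6.11 on ERD and 6.62, 6.27, 6.72, 6.34 and 6.69 on STD. BLD lay below STD throughout and overlapped ERD only through ERD 4, with a contrast of -0.59 ± 0.13 (1.51-fold lower). Another Mapk10 probe had 0.57 ± 0.23, so the probes disagreed in sign. In Cy5 alone the difference was -0.14 and in the reference channel 0.46. Zfp703, a zinc finger protein of the nucleus, measured 0.48, 0.21, 0.52, 0.50 and 0.18 on BLD, 1.53, 0.94, 0.60, 0.84 and 1.32 on ERD and 0.61, 0.59, 1.07, 0.66 and 0.82 on STD. Every BLD array lay below every other array, and the contrast was -0.52 ± 0.14 (1.44-fold lower).

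Among genes with a symbol under the same detection rule, Mapk10, Bud31 and Tbx3 were those of lowest p for BLD below both extremes. Bud31, a spliceosome-associated protein, measured -1.04, -0.81, -0.78, -0.64 and -0.94 on BLD, -0.36, -0.53, -0.52, -0.69 and -0.46 on ERD and -0.48, -0.60, -0.61, -0.35 and -0.22 on STD. Only BLD 4 fell within the range of the other diets, through ERD 4. The contrast was -0.36 ± 0.10, and it turned to 0.035 with median centring, which shifted all genes upward. Tbx3, a T-box transcription factor, had -0.52 ± 0.17, with -0.52 against ERD and -0.52 against STD. Its BLD values ran from -1.23 to -0.81, and the highest of them reached into the ERD and STD ranges. Arfgap3, which inactivates Arf proteins at the Golgi, had -0.29 ± 0.081 from its brightest probe and -0.017 ± 0.16 from another.

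The lower set also held the myelin gene Mag. Mag, the myelin-associated glycoprotein, measured 4.49, 4.57, 4.32, 4.48 and 4.47 on BLD, 4.58, 5.05, 4.77, 4.62 and 4.53 on ERD and 5.25, 4.88, 5.52, 4.80 and 5.14 on STD. BLD varied least, lay below all STD arrays and, except BLD 2, below all ERD arrays, so that -0.65 against STD and -0.24 against ERD made up the contrast of -0.45 ± 0.12. Bcas1, a protein of maturing oligodendrocytes, had -0.40 ± 0.10 as a ratio, but -0.10 in Cy5 alone and 0.30 in the reference channel. The contrast of Faim2, a neuronal inhibitor of Fas signalling, was -0.65 ± 0.17. For Caln1, a neuronal calcium sensor, it was -0.49 ± 0.14. Gdap1l1, a relative of a mitochondrial fission factor, had -0.41 ± 0.11 from its brightest probe and 0.19 ± 0.25 from another. Atp9a, like Atp11b a flippase of the P4 family, had -0.40 ± 0.10, but its other probe had 0.050 ± 0.13 and median centring turned the sign to 0.011.

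For Pde5a and Slc49a4 BLD lay nearer to ERD than to STD. Pde5a, which degrades cyclic GMP, measured -0.74, -1.02, -0.93, -1.42 and -0.82 on BLD, -0.22, -0.94, -0.47, -0.98 and -0.61 on ERD and -0.77, 0.55, 0.55, 0.43 and 0.66 on STD. STD 1 lay with BLD and ERD, apart from the other 4 STD arrays, and the contrast was -0.81 ± 0.21. Slc49a4, a transporter of the lysosomal membrane, had -0.13 against ERD and -0.85 against STD.

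**Figure D4:**
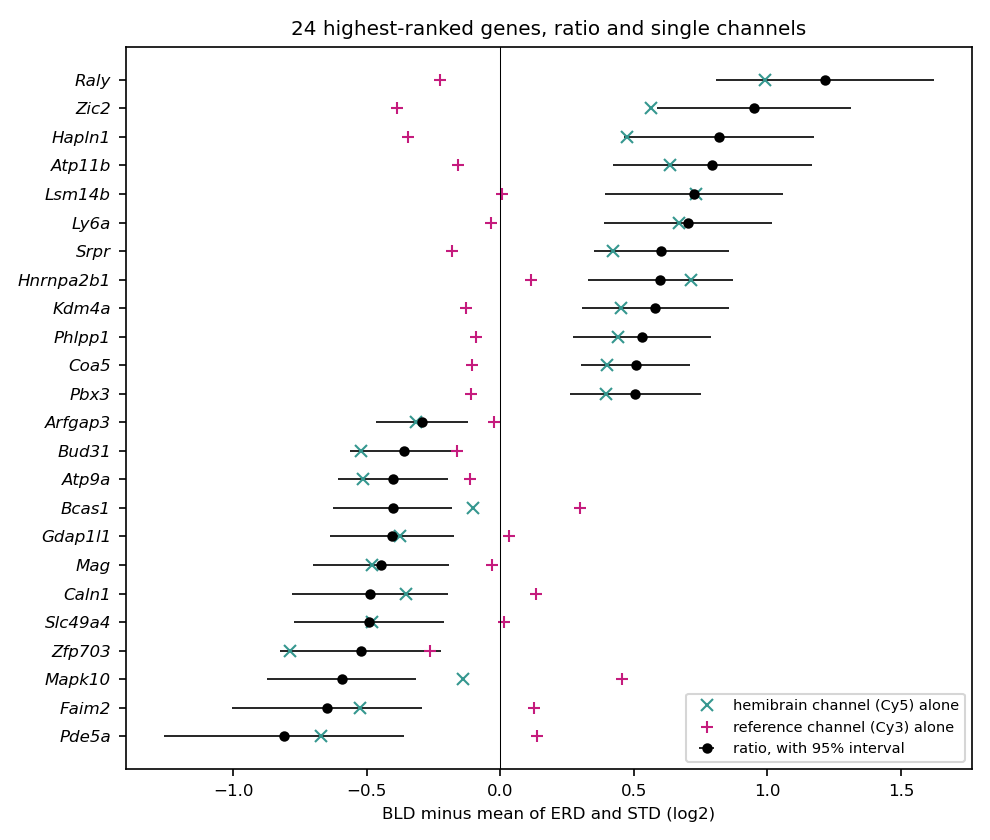
Contrast of BLD with the mean of ERD and STD (horizontal axis, log2) of the 24 ranked genes with a symbol. It is shown as a ratio with its 95% interval (black) and in the hemibrain channel (cross) and the reference channel (plus) alone. In all 24 the hemibrain channel has the sign of the ratio, and in 17 the reference channel has the opposite sign, the largest being Mapk10 at 0.46.

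The 24 genes kept their sign with scan day as a block, on the earlier day alone, with slide as a block and on the 1 slide that held all diets. They were chosen by low p on these same arrays, so a kept sign was likely from the choice and is not separate evidence. With scan day as a block, 0 genes were called and the lowest adjusted p was 0.776. The part of scan day in these values was not tested beyond that.

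The probe with the lowest p of all had no gene symbol. It was designed on a transcript named only by the accession of a sequence record and is called here by its probe name, A_55_P1990629. It measured 0.46, 0.40, 0.47, 0.46 and 0.25 on BLD, -0.21, -0.30, 0.070, -0.16 and -0.37 on ERD and -0.13, -0.18, -0.051, -0.29 and -0.31 on STD. All BLD arrays lay above all others, and the contrast of 0.60 ± 0.087 had an adjusted p of 0.1. The reference channel differed by 0.029 and the hemibrain channel by 0.63. It was called with no filter on dim probes (adjusted p = 0.0246), with a trend and robust spread (0.0225), with slide as a random block (0.0473) and without ERD 3 (0.0366).

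A long noncoding RNA interval gave a repeated measurement of 1 locus. Probe A_30_P01021398 lies in an interval of the array design at chr17:26911397-26917047 on the forward strand of mm9, and no gene symbol is attached to it. It measured 0.92, 0.57, 0.57, 0.66 and 0.51 on BLD, -0.16, -0.19, 0.081, 0.0089 and 0.41 on ERD and 0.19, 0.47, 0.12, 0.33 and 0.14 on STD, again without overlap, with a contrast of 0.51 ± 0.11. The design holds 10 tested probes for this interval, and 9 had a positive contrast. Their contrasts ranged from -0.017 to 0.57 with a median of 0.44, and 8 had an unadjusted p under 0.05. Among the 12 intervals with at least 8 tested probes this median was the highest, and the middle interval had 0.086. The probes share a transcript or locus and are not independent, and the interval was looked at because of 1 of its probes. Whether the probes lie in exons or introns was not analysed here. On the low side, A_30_P01033314 in chr13:70745633-70776516 on the reverse strand had -0.56 ± 0.12, and the other tested probe of that interval had -0.16. A_55_P2022114, also without a symbol, had -0.41 ± 0.11.

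The 43 gene lists held 1410 entries, of which 1286 were measured. They were described by how many members had BLD higher or lower and by the median contrast, to be read against 61.5% higher and a median of 0.051 over all genes. No list held a called gene, where 0% of all genes were called. The sign of a list's median depended on the processing in most cases. Beside each median, the values that had the opposite sign are given for the scaling, Cy5, scan day and slide alternatives. Those on the slide with all diets rest on single arrays, ERD 5, BLD 5 and STD 4. The median kept its sign under every alternative in 5 of 43 lists, namely PUFA synthesis, cholesterol, glycolysis, splicing and chromatin. It was opposite in 21 lists with an offset of 1 and in 22 with the scanner software's log ratio. All 5 kept medians were positive. The median of all genes was also positive, from 0.00075 with an offset of 1 to 0.198 with median centring. A kept sign therefore does not set a list apart from all genes, and the chromatin median of 0.044 lay below theirs.

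**Figure D5:**
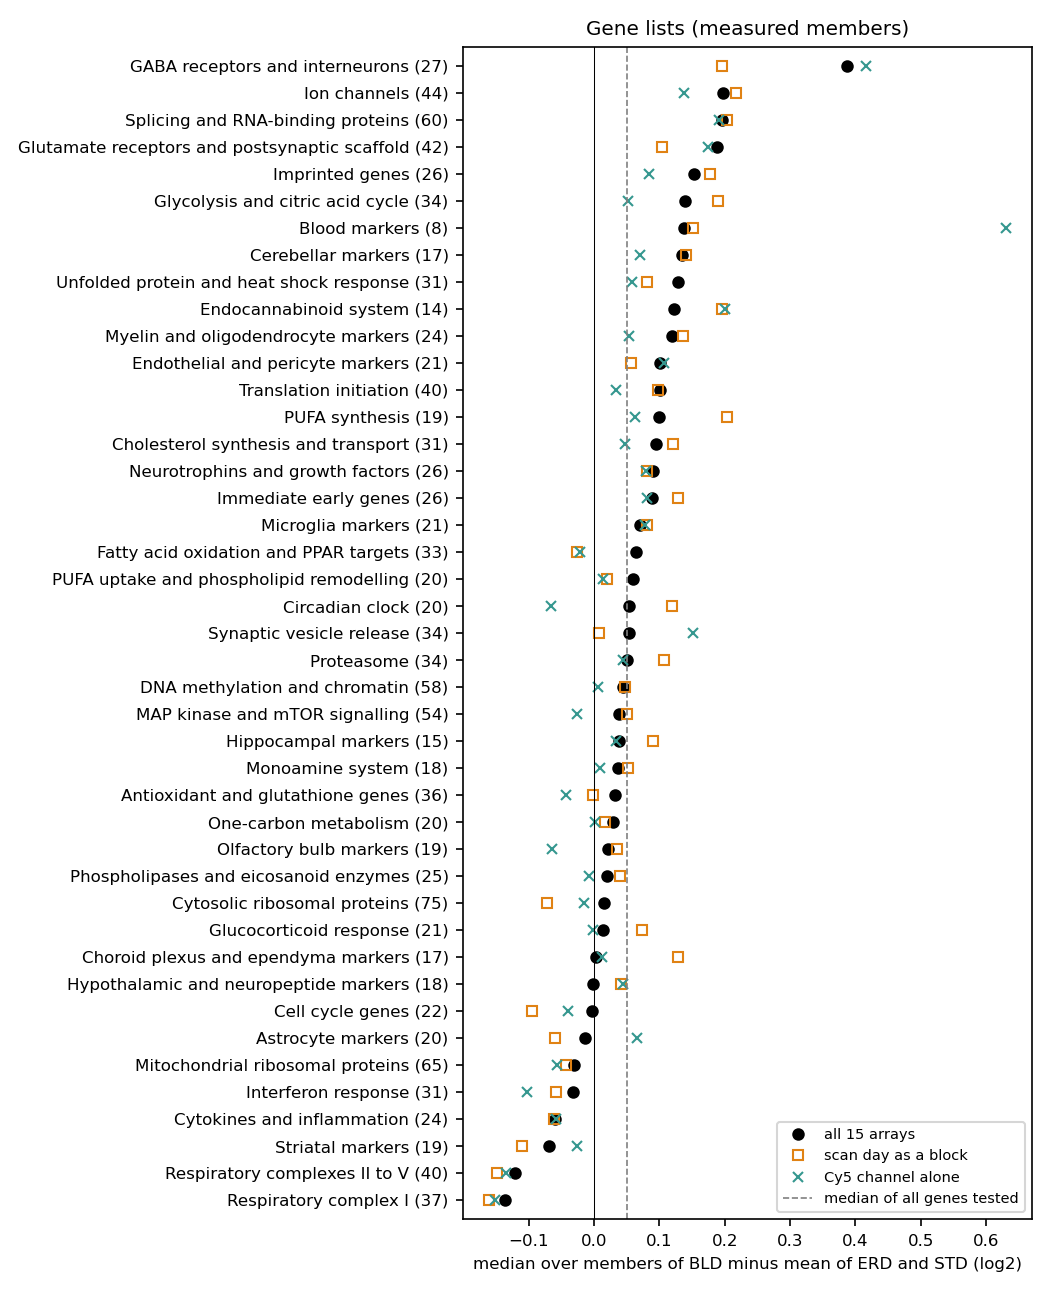
Median over the measured members of each gene list (number in brackets) of the contrast of BLD with the mean of ERD and STD (horizontal axis, log2), from all 15 arrays (black), with scan day as a block (square) and from the Cy5 channel alone (cross); the dashed line is the median of all genes, 0.051. The splicing list stays near 0.2 and both respiratory lists stay below 0 in all of these, while the list of GABA genes moves from 0.39 to 0.20 with scan day as a block.

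The genes of PUFA synthesis, which the diets supply with substrate, included no gene past the test. 12 of 19 members were higher in BLD, with a median of 0.10. Fads1, the delta-5 desaturase, measured -0.71, -0.81, -1.38, -0.53 and -0.97 on BLD, -2.09, -2.24, -1.29, -1.41 and -1.40 on ERD and -1.59, -0.77, -1.14, -1.28 and -0.49 on STD. BLD and STD overlapped over most of their range and ERD lay lowest on average, so the contrast of 0.49 ± 0.20 came from 0.81 against ERD and 0.18 against STD. Its 95% interval ran from 0.060 to 0.92, with an unadjusted p of 0.0282 and an adjusted p of 0.546. Fads2, the delta-6 desaturase, was well above background in Cy5 on 1 ERD, 2 BLD and 5 STD arrays. Its contrast was -0.0080 ± 0.087, with an interval of -0.19 to 0.18, and its sign changed with several settings. The elongases Elovl2, Elovl5 and Elovl6 had 0.23 ± 0.26, 0.20 ± 0.094 and 0.21 ± 0.10. For Elovl2 the value was 0.063 in Cy5 alone, -0.022 without BLD 5 and -0.40 with the scanner software's log ratio.

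The lists of PUFA uptake and of phospholipases had medians near that of all genes, and the endocannabinoid list had a higher one. In the uptake and phospholipid remodelling list 11 of 20 members were higher, with a median of 0.060, turning to -0.11 with the background offset of 1, -0.11 with the scanner software's log ratio, -0.026 without background correction, -0.013 on the earlier scan day, -0.020 with slide as a block and -0.022 on the slide with all diets. Mfsd2a, which carries docosahexaenoic acid across the blood-brain barrier as a lysophospholipid, had -0.25 ± 0.18, the sign turning to 0.067 with median centring. Mboat7, an acyltransferase that places arachidonic acid in phosphatidylinositol, had 0.37 ± 0.14, and Agpat4, another acyltransferase, -0.35 ± 0.15. Among phospholipases and eicosanoid enzymes 14 of 25 were higher, with a median of 0.020, turning to -0.032 with the background offset of 1, -0.0063 with the scanner software's log ratio and -0.0081 in Cy5 alone, and lysosomal Pla2g15 had 0.25 ± 0.11. The endocannabinoid list had 10 of 14 higher and a median of 0.12, turning to -0.11 with the background offset of 1 and -0.081 with the scanner software's log ratio. Both of its named members take part in making anandamide and its relatives. Napepld had 0.34 ± 0.16 and Gde1 0.39 ± 0.18, and both had most of the distance from ERD.

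Fatty acid oxidation and the targets of PPAR receptors had 20 of 33 members higher and a median of 0.065, turning to -0.021 in Cy5 alone, -0.025 with scan day as a block, -0.012 on the earlier scan day and -0.026 on the slide with all diets. Hadha, of the mitochondrial trifunctional protein, had -0.025 against ERD and 0.41 against STD, and in Cy5 alone its contrast was -0.022. In cholesterol synthesis and transport 23 of 31 were higher, with a median of 0.10 and a range of 0.047 to 0.29 over the alternatives. Fdft1, squalene synthase, had 0.49 ± 0.16. Mvk, mevalonate kinase of the same pathway, had -0.50 ± 0.14 from its brightest probe and 0.18 ± 0.13 from another.

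The highest list median belonged to the genes of GABA signalling, and its sign depended on the background correction, as did that of the glutamate and ion channel lists. For GABA receptors and interneurons 22 of 27 members were higher, with a median of 0.39, turning to -0.046 with the background offset of 1, -0.27 with the scanner software's log ratio and -0.010 on the slide with all diets. The mean of its members, relative to each gene's mean, was 0.34, 0.24, 0.067, 0.52 and -0.040 on BLD, -1.01, 0.17, -0.38, -0.12 and -0.078 on ERD and 0.038, 0.42, -0.049, 0.018 and -0.13 on STD. ERD 1 was far below every other array. All BLD arrays but BLD 4 lay within the STD range, and STD 2 exceeded each of them. Without ERD 1 the median was 0.22. Gabra4, a subunit of the GABA-A receptor channel, had 0.95 ± 0.26 as a ratio and 0.63 in Cy5 alone, and its sign turned to -0.081 with the scanner software's log ratio.

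The list of glutamate receptors and postsynaptic scaffold proteins had 31 of 42 higher and a median of 0.19, turning to -0.19 with the background offset of 1 and -0.23 with the scanner software's log ratio. Nlgn1, a synaptic adhesion protein, had 0.85 ± 0.26 as a ratio and 0.64 in Cy5 alone. Grik1, a kainate receptor subunit, had 0.55 ± 0.19 and 0.35. In both, BLD reached the highest values and overlapped the other diets. Among ion channels 34 of 44 were higher, with a median of 0.20, turning to -0.057 with the background offset of 1 and -0.13 with the scanner software's log ratio. Kcnd2, a subunit of the A-type potassium current, had 0.93 ± 0.33 as a ratio and 0.62 in Cy5 alone. The ratio difference averaged 1.34 against ERD and 0.52 against STD, and it turned to -0.41 with the scanner software's log ratio. Cacna1d, an L-type calcium channel, had 0.52 ± 0.22 as a ratio, 0.29 in Cy5 alone and 0.11 ± 0.12 from another probe.

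Other neuronal lists lay closer to all genes. Synaptic vesicle release had 19 of 34 higher and a median of 0.053, turning to -0.16 with the background offset of 1, -0.19 with the scanner software's log ratio, -0.055 without background correction and -0.016 on the slide with all diets. Syn3, a synapsin, had 0.48 ± 0.18. Immediate early genes had 16 of 26 higher and a median of 0.089, and -0.0080 without BLD 1. Dusp6, a phosphatase of ERK, had 0.37 ± 0.11, and Egr4 0.63 ± 0.22, the latter with 1.15 against ERD and 0.12 against STD, and with -0.35 from the scanner software's log ratio. Neurotrophins and growth factors had 18 of 26 higher and a median of 0.091, turning to -0.036 with the background offset of 1 and -0.061 with the scanner software's log ratio. Besides Cntfr, its signalling partner Il6st had 0.35 ± 0.11, and Bdnf 0.19 ± 0.10. In the monoamine system 10 of 18 were higher, with a median of 0.037, turning to -0.17 with the background offset of 1, -0.36 with the scanner software's log ratio and -0.054 without background correction. Maob, which degrades monoamines, was low on ERD at 0.19, 1.56, 1.51, 1.38 and 2.35, while BLD and STD overlapped between 2.20 to 3.10 and 2.57 to 3.10. The serotonin receptor Htr2c had 0.71 ± 0.31, 0.45 in Cy5 alone, -0.021 ± 0.12 from another probe and -0.23 with the scanner software's log ratio.

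Markers of cell types showed no list that lay to 1 side under all settings. Astrocyte markers had 11 of 20 members lower and a median of -0.014, turning to 0.10 with median centring, 0.066 in Cy5 alone, 0.13 with slide as a block and 0.11 on the slide with all diets. Aldoc, the brain aldolase of astrocytes, had -0.43 ± 0.15, and Gfap, their intermediate filament, 0.60 ± 0.23, in opposite directions. Gfap lay at 3.16, 3.49, 3.54, 3.94 and 4.44 on BLD and 2.94, 3.83, 4.27, 3.81 and 3.29 on ERD, against 2.37, 3.11, 2.42, 2.16 and 2.88 on STD. BLD lay above all STD arrays and overlapped ERD. The sign turned to -0.24 with an offset of 1 and to -0.39 with the scanner software's log ratio. Myelin and oligodendrocyte markers had 14 of 24 higher and a median of 0.12, turning to -0.11 with the background offset of 1, -0.30 with the scanner software's log ratio and -0.033 without background correction. Within that list Mag was lower, whereas Cldn11, the tight junction protein of myelin, had 0.75.

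Microglia markers had 14 of 21 higher and a median of 0.070, turning to -0.082 with the background offset of 1, -0.027 with the scanner software's log ratio and -0.010 without background correction. P2ry12, their purinergic receptor, had 0.51 ± 0.19 as a ratio and 0.26 in Cy5 alone, and Olfml3 1.38 ± 0.51 with 0.42 ± 0.11 from another probe. Olfml3 ranged from 0.0076 to 3.18 within ERD alone, and with scan day as a block its contrast was 0.68. Endothelial and pericyte markers had 15 of 21 higher and a median of 0.10, turning to -0.10 with the background offset of 1 and -0.13 with the scanner software's log ratio, and the pericyte gene Rgs5 had 0.70 ± 0.29. Choroid plexus and ependyma markers had 9 of 17 higher and a median of 0.0039, turning to -0.056 with the background offset of 1, -0.16 with the scanner software's log ratio and -0.040 without background correction. Ttr, transthyretin of the choroid plexus, had -0.38 ± 0.15 as a ratio and 0.16 in Cy5 alone.

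Blood markers were higher in 8 of 8 members, with a median of 0.14, turning to -0.028 with the background offset of 1, -0.030 with the scanner software's log ratio and -0.16 on the slide with all diets. Alas2, the heme synthesis enzyme of red cells, measured 2.38, 1.17, 2.85, 1.36 and 1.56 on BLD, 0.87, 1.68, 0.74, 0.58 and 1.27 on ERD and 1.07, 1.13, 1.44, 0.72 and 1.02 on STD. BLD 1 and BLD 3 were highest and the other BLD arrays overlapped both extremes. The beta globin gene Hbb-b1 had 0.81 ± 0.31 as a ratio and 0.58 in Cy5 alone, again with BLD 1 and BLD 3 highest, and -0.30 on the slide that held all diets. The mean of the blood markers, relative to each gene's mean, was 0.48, 0.26, 0.52, 0.16 and -0.37 on BLD, -0.25, -0.13, -0.35, -0.15 and -0.10 on ERD and -0.038, 0.042, 0.14, -0.31 and 0.082 on STD. BLD 3 and BLD 1 held the highest of these means and BLD 5 the lowest of all 15 arrays, and the part of blood left in the tissue was not tested.

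Regional markers bear on whether the dissected hemibrains were alike. Cerebellar markers, which include Zic2 and Zic1, had 14 of 17 higher and a median of 0.13, turning to -0.14 with the scanner software's log ratio. Their mean relative to each gene's mean was 0.14, 0.073, 0.036, 0.31 and 0.091 on BLD, -0.24, 0.19, -0.24, -0.11 and -0.052 on ERD and 0.0013, 0.071, -0.044, -0.045 and -0.18 on STD. BLD was positive on all arrays, and ERD 2 reached above most of them. Striatal markers had 13 of 19 lower and a median of -0.069, turning to 0.16 with median centring and 0.033 with slide as a block, with Penk at -0.35 ± 0.16 and 0.11 in Cy5 alone. Hypothalamic and neuropeptide markers were split evenly (9 of 18 higher, median -0.00085, turning to 0.15 with median centring, 0.044 in Cy5 alone, 0.042 with scan day as a block, 0.16 with slide as a block and 0.067 on the slide with all diets). Hippocampal markers had 9 of 15 higher and a median of 0.038, turning to -0.070 with the background offset of 1, -0.29 with the scanner software's log ratio and -0.023 without background correction. Olfactory bulb markers had 10 of 19 higher and a median of 0.022, turning to -0.17 with the background offset of 1, -0.19 with the scanner software's log ratio, -0.10 without background correction, -0.064 in Cy5 alone, -0.0025 on the earlier scan day and -0.29 on the slide with all diets. Dlx5, a transcription factor of interneurons, had 0.46 ± 0.20, but 0.11 with scan day as a block and 0.11 on the earlier scan day.

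The lists of RNA processing and of respiration had medians of opposite sign, except with median centring. Splicing and RNA-binding proteins had 49 of 60 members higher and a median of 0.20, with 0.06 to 0.47 over the alternatives. Of the 60, 10 were higher at an unadjusted p under 0.05 and 0 lower, where 6.48% of all genes were higher and 2.09% lower. Besides Raly and Hnrnpa2b1 these included Hnrnpd (0.52), Mbnl2 (0.69), Srsf6 (0.55) and Hnrnpu (0.67), which were picked out after their values were seen. The list mean relative to each gene's mean was 0.24, 0.20, -0.050, 0.27 and 0.16 on BLD, -0.54, -0.38, 0.066, -0.069 and 0.039 on ERD and 0.060, 0.12, -0.032, 0.048 and -0.13 on STD. BLD 3 was the exception among the BLD arrays, and ERD 1 and ERD 2 lay lowest. Against ERD and STD separately the list median was 0.22 and 0.14.

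Subunits of respiratory complex I, which passes electrons from NADH into the chain, had 27 of 37 members lower in BLD and a median of -0.14, turning to 0.21 with median centring. Median centring shifted all genes to 0.198, so relative to that shift the complex I median was close to the rest. Ndufa13 measured 1.14, 1.33, 1.25, 1.36 and 1.41 on BLD, 1.91, 1.59, 1.49, 1.46 and 1.67 on ERD and 1.35, 1.49, 1.89, 1.59 and 2.25 on STD. BLD was lowest on average and overlapped STD 1, and the contrast was -0.37 ± 0.13. Ndufb10 had -0.35 ± 0.13. In complexes II to V 32 of 40 were lower, with a median of -0.12, turning to 0.24 with median centring. On the earlier scan day alone that median was -0.28. Subunits of ATP synthase went both ways: Atp5j2 had -0.45 ± 0.18 and Atp5pb 0.38 ± 0.16, and other probes of both lay near 0.

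Glycolysis and the citric acid cycle had 25 of 34 members higher and a median of 0.14, positive under all alternatives. Pgk1, a kinase of glycolysis, had 0.32 ± 0.12, while Aldoc of the same pathway was lower. Cytosolic ribosomal proteins had 40 of 75 higher and a median of 0.015, turning to -0.0046 with the scanner software's log ratio, -0.016 in Cy5 alone, -0.072 with scan day as a block, -0.20 on the earlier scan day, -0.18 with slide as a block and -0.22 on the slide with all diets. Rpl36 had -0.37 ± 0.14, with both other probes also negative, and Rpl3 0.42 ± 0.17. Mitochondrial ribosomal proteins had 35 of 65 lower and a median of -0.031, turning to 0.29 with median centring, with Mrpl3 at -0.39 ± 0.17 and Mrpl39 at 0.30 ± 0.13. Another Mrpl39 probe had 0.085 ± 0.12. Translation initiation had 28 of 40 higher and a median of 0.10, turning to -0.0062 on the slide with all diets. Eif2b5, of the exchange factor for initiation factor 2, had 0.28 ± 0.10, and Eif4g2 0.57 ± 0.21. In the proteasome 23 of 34 were higher, with a median of 0.051, turning to -0.058 on the slide with all diets, Psmb7 at 0.47 ± 0.18 and Psmc5 at -0.22 ± 0.092.

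Immune and stress lists gave medians from -0.060 to 0.13. Interferon response genes had 19 of 31 lower and a median of -0.032, turning to 0.048 with the background offset of 1, 0.094 with the scanner software's log ratio and 0.25 with median centring. Lgals3bp had 0.24 ± 0.092 as a ratio, with -0.032 against ERD and 0.51 against STD. In Cy5 alone it had 0.071 and in the reference channel -0.17, and another of its probes had 0.40 ± 0.21. Isg20 had 0.36 ± 0.16, which was -0.047 with slide as a block. Another Isg20 probe had 0.094 ± 0.14. Cytokines and inflammation had 14 of 24 lower and a median of -0.060, turning to 0.19 with median centring. Tnfaip3, an inhibitor of NF-kappaB signalling, had -0.30 ± 0.14. Unfolded protein and heat shock genes had 20 of 31 higher and a median of 0.13, turning to -0.023 with slide as a block and -0.10 on the slide with all diets, with the chaperones Hspa2 at 0.43 ± 0.16 and Hsph1 at 0.49 ± 0.20. Another Hsph1 probe had 0.14 ± 0.19. Antioxidant and glutathione genes had 20 of 36 higher and a median of 0.033, turning to -0.043 in Cy5 alone and -0.0019 with scan day as a block. The glucocorticoid list had 13 of 21 higher and a median of 0.014, turning to -0.0041 with the background offset of 1, -0.11 with the scanner software's log ratio and -0.0012 in Cy5 alone. Hsd11b1, which regenerates active glucocorticoid, had 0.36 ± 0.14. Circadian genes had 13 of 20 higher and a median of 0.053, turning to -0.030 with the scanner software's log ratio and -0.065 in Cy5 alone, with Tef at -0.36 ± 0.13 and Cry2, a repressor of the clock, at -0.27 ± 0.12.

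Among regulators, DNA methylation and chromatin genes had 38 of 58 higher and a median of 0.044. Smarca2, an ATPase of the SWI/SNF complex, had 0.40 ± 0.13, the average of 0.74 against ERD and 0.054 against STD. One-carbon metabolism had 12 of 20 higher and a median of 0.030, turning to -0.031 with the background offset of 1 and -0.10 on the slide with all diets. Mat2b, of methionine adenosyltransferase, had 0.36 ± 0.12. Mtr, methionine synthase, measured 0.067, 1.06, 0.55, 0.76 and -0.16 on BLD, -0.13, -0.39, -0.25, 1.00 and -0.25 on ERD and -0.35, -0.43, -0.057, -0.20 and -0.20 on STD. The 4 highest arrays were the 4 of the later scan day, and with scan day as a block its contrast of 0.58 ± 0.22 was 0.077. Another Mtr probe had -0.046.

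Imprinted genes had 20 of 26 higher and a median of 0.15, turning to -0.023 with the background offset of 1. Plagl1, an imprinted zinc finger factor, measured 1.50, 1.36, 1.90, 1.43 and 0.87 on BLD, -0.13, 0.33, 0.50, 0.54 and 1.02 on ERD and 0.63, 1.02, 0.49, 0.90 and 1.17 on STD. BLD 5 lay within both other diets and the remaining BLD arrays above them. The contrast was 0.77 ± 0.18 (1.7-fold), and the other 3 probes of Plagl1 had 0.77, 0.39 and 0.18, all positive. On the slide that held all diets it was -0.083. Sgce, another imprinted gene, had 0.42 ± 0.17. MAP kinase and mTOR signalling had 32 of 54 higher and a median of 0.039, turning to -0.025 in Cy5 alone, with the kinase Braf at 0.38 ± 0.10 from its brightest probe and -0.061 ± 0.19 from another. Cell cycle genes were split evenly (11 of 22 higher), with a median of -0.0027, turning to 0.17 with the background offset of 1, 0.29 with the scanner software's log ratio, 0.15 without background correction and 0.33 with median centring.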

How the data were processed

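The data are 15 two-colour Agilent arrays, 5 per diet. The authors deposited scanner files whose intensity columns hold the median foreground and median background signal of each spot in Cy5 and Cy3, per the file headers. Their deposited log10 ratio of Cy5 to Cy3 equals the value table and was used as an alternative. The headers give version 11.5.1.1 of the scanner software, Feature Extraction, and the submitters' processing notes give 10.7. All titles carry the word control, so groups were taken from the diet label. Cy5 held hemibrain RNA on every array, with no dye swap, so a dye effect does not cancel within an array.

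Intensities were corrected with normexp (offset 50), normalized by loess within each array without control spots, and expressed as log2 ratios in R 4.3.3 with limma 3.58.1. Outlier spots (0.57%) were left out. Of 55681 probes, 27656 had a symbol and 26348 had a Cy5 signal well above background on 5 or more arrays. The probe of highest mean Cy5 level stood for a gene and probes without a symbol stood for themselves, with at least 8 values in all and 3 per diet. This gave 22557 genes (13763 with a symbol). lmFit and eBayes with 1 mean per diet (12 residual degrees of freedom) tested BLD minus the average of ERD and STD. BLD beyond both extremes was tested by the larger of both p-values where BLD lay on the same side of each. P-values were adjusted by Benjamini-Hochberg over all genes with a threshold of 0.05. Arrays differ in number of detected spots, which limits precision. Pairwise fits and each channel after loess and Aquantile used the same model. The code was tested on simulated data. Figures used Python 3.11.15, pandas 2.3.3 and matplotlib 3.10.9.

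Named were, among genes with a symbol with a Cy5 signal well above background on 3 or more arrays of each diet, the 12 of lowest p in each direction, the 3 of lowest p beyond both extremes in each direction, up to 2 of unadjusted p under 0.05 in each of 43 lists, 6 genes fixed by name (Fads1, Fads2, Elovl2, Elovl5, Mfsd2a, Bdnf) and up to 2 probes without a symbol in each direction, 98 in all. The values of a few of these genes are not reported here. Other names were chosen after their values were seen. Members and lists were chosen with earlier results of these data known. Coordinates are those of the array design, mm9 per the file headers. Alternatives changed background correction, normalization, filter, probe rule, spread, weights, slide, scan day and arrays. Probe sequences were not used here.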

Additional observations from a re-analysis of the deposited data

Results flagged for a closer look

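Of 294 groups of 5 arrays (98 genes by 3 diets), 20 had an array whose gap to the nearest of the others was above Dixon's 95% critical value, and chance marks about 1 in 20. ERD 1 and STD 1 held 4 each. ERD 1 lay high for Atp5j2 at 1.79 (others 0.47 to 0.75), for Pgk1 at -0.77 (others -1.51 to -1.44) and for Rpl36 at 0.10 (others -0.49 to -0.37). It lay low for Ly6a at -1.67 (others -0.98 to -0.71). STD 1 lay high for Raly at -0.46 (others -1.84 to -1.49) and for Elovl5 at 0.22 (others -0.23 to -0.10). It lay low for Pde5a at -0.77 (others 0.43 to 0.66) and for the probe A_30_P01033314 at -0.29 (others 0.17 to 0.34).

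BLD arrays stood apart in 4 groups. BLD 1 was low for Atp9a at 4.07 (others 4.37 to 4.48) and high for Egr4 at 6.08 (others 4.995 to 5.29). BLD 2 was low for Maob at 2.20 (others 2.88 to 3.10), and BLD 4 low for Atp5pb at 0.044 (others 0.44 to 0.59). In the remaining ERD groups, ERD 4 was high for Mtr at 1.00 (others -0.39 to -0.13), and ERD 5 was high for Slc49a4 at -0.15 (others -0.42 to -0.34) and for Eif4g2 at -0.86 (others -2.09 to -1.80). Among STD arrays, STD 3 was low for Mat2b at 0.59 (others 0.85 to 0.94). STD 4 was low for Dlx5 at 0.23 (others 0.98 to 1.20) and for Elovl2 at 1.39 (others 1.78 to 1.92). STD 5 was low for Hsph1 at 0.53 (others 1.54 to 1.92) and for Pgk1 at -1.47 (others -1.25 to -1.18).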

How the results depend on the processing

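The count of genes called was 0 in limma (1461 higher and 471 lower at an unadjusted p under 0.05). It was 1 with no filter on dim probes (A_55_P1990629, adjusted p = 0.0246), 2 with a trend and robust spread and 2 with slide as a random block (A_55_P1990629 and Raly in both), and 1 on the earlier scan day alone (Zic2, adjusted p = 0.00691, and 1 gene beyond both extremes, also Zic2, at 0.0368). Leaving out 1 array gave 0 to 1 called, namely A_55_P1990629 without ERD 3 (adjusted p = 0.0366), Zic2 without BLD 3 (0.0142) and Raly without STD 1 (0.000237), and 0 beyond both in every case. All other alternatives called 0. The earlier scan day leaves out BLD 2 and BLD 3, the low BLD arrays of Zic2. The reference channel had 3 genes called with an offset of 1, 8266 with array quality weights, 1 with slide as a random block, 1 on the earlier day and 0 otherwise. Without 1 array, 961 to 1987 genes were higher and 357 to 628 lower without adjustment. Those counts were 1017 and 281 with scan day as a block, 1390 and 292 without the 3 least correlated arrays, and 981 and 613 without background correction. Aquantile leaves ratios as they are and changed nothing. With weights set by the log2 n-3 to n-6 ratio (0.479 for ERD), 0 genes were called.

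Of 98 named genes, 72 kept their direction under all alternatives. The log2 difference turned to -0.033 for Egr4, -0.24 for Gfap and 0.063 for Fads2 with an offset of 1, and to 0.011 for Fads2 without background correction. With the scanner software's log ratio it turned to -0.081 for Gabra4, -0.35 for Egr4, -0.41 for Kcnd2, -0.23 for Htr2c, -0.39 for Gfap, -0.30 for Alas2, -0.72 for Zic1, 0.19 for Fads2 and -0.40 for Elovl2. With median centring it turned to 0.011 for Atp9a, 0.035 for Bud31, 0.023 for Tef, 0.054 for Cry2, 0.047 for Ndufa13, 0.054 for Ndufb10, 0.072 for Rpl36, 0.12 for Psmc5, 0.12 for Fads2 and 0.067 for Mfsd2a, all below the shift of 0.198 that this setting gave all genes. In Cy5 alone it turned to -0.022 for Hadha, 0.16 for Ttr and 0.11 for Penk. Coa5 had -0.21 when probes had to pass in Cy5 on all arrays, which selects its other probe. With slide as a block, Isg20 had -0.047 and Fads2 0.016. Fads2 also had 0.015 with scan day as a block, 0.013 on the earlier day, 0.016 with Cy5 detection as a covariate, 0.027 without the 3 least correlated arrays, and -0.044 to 0.035 as single arrays were left out (0.026, 0.035 and 0.0063 without ERD 3, BLD 3 and STD 5). Elovl2 had -0.022 (without BLD 5) to 0.44. On the slide that held all diets, Olfml3 had -0.85, Hbb-b1 -0.30, Isg20 -0.053, Tef 0.15, Plagl1 -0.083, Fads2 0.0038 and Mfsd2a 0.25. Where no construction is named, the cause was not tested.

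No paired analysis was possible because the labels give no replicate numbers shared between diets. Differences in genes near background depend on the offset, and whether they were less certain than others was not tested. With 5 arrays per diet the median SE was 0.14.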

Other observations

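In 39 genes BLD lay above ERD and above STD by more than 1 on the log2 scale, and in 0 genes it lay below both by that much. These genes were picked by their values, so their difference is a description. A symbol was attached to 13 of them. They include Olfml3, the amino acid transporter Slc7a5, the bicarbonate transporter Slc4a10, the Ras exchange factor Rasgrf1, the sperm flagellar gene Spef2, and the odorant and pheromone receptors Olfr173, Vmn1r240 and Vmn1r65. The median difference was 1.45. These genes varied widely within diets, with a median SD of 1.29 in ERD, 1.35 in BLD and 0.69 in STD, against 0.27, 0.25 and 0.19 over all genes.

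Their mean level, relative to each gene's mean, was 0.45, 1.82, 0.71, 2.51 and -0.57 on BLD, -2.12, -0.97, -0.79, 0.96 and 0.49 on ERD and -0.33, 0.24, -0.93, -0.05 and -1.40 on STD. The 4 highest means belonged to the 4 arrays of the later scan day. With scan day as a block the median difference was 0.60, on the earlier day alone 0.57 and with slide as a block 0.30. It was 1.28 in the hemibrain channel and -0.21 in the reference channel. Spef2 had the highest contrast of all genes. It measured 4.99, 7.29, 5.67, 8.01 and 3.40 on BLD, 1.16, 3.04, 3.84, 6.53 and 5.27 on ERD and 4.14, 5.04, 2.85, 4.48 and 2.07 on STD. BLD 4, BLD 2, ERD 4 and BLD 3, all of the later day, were the highest arrays, and the groups overlapped.

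Beside the noncoding interval on chromosome 17, the next highest median among intervals with at least 8 tested probes was 0.21, at chr11:95627874-95640824.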
